A study of Mus musculus with 24 samples.

Results

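Kruppel-like factors are zinc-finger transcription factors that bind GC-rich and CACCC sequences in promoters and enhancers. The 9 studied here (Klf2, Klf3, Klf4, Klf5, Klf6, Klf7, Klf10, Klf13 and Klf15) were taken by gene symbol from a deposited transcript table and summed to genes, giving 27 transcripts of the 129299 listed and 9 genes of 45777. All 9 passed the filter on low counts, which left 19690 genes.

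The family divides by function. Klf2 and Klf4 are induced by laminar blood flow, keep endothelium quiescent and anticoagulant, and in T cells Klf2 maintains homing receptors. Klf6 and Klf10 are rapidly induced genes tied to tissue injury and to TGF-beta signalling, and Klf5 serves epithelial cells and smooth muscle. Klf3 is mainly a repressor that recruits CtBP, Klf7 was described first in neurons, Klf13 regulates T-cell genes, and Klf15 is a glucocorticoid-induced regulator of amino acid and lipid metabolism.

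The 24 RNA-seq libraries came from lungs of wild-type male C57BL/6J mice and make up 6 groups of 4. Old mice were 22 to 24 months of age and young mice 8 to 12 weeks. In the old 1 h, old 1 day, young 1 h and young 1 day groups, a clamp on the vessels and bronchus held the left lung ischemic for 60 min and was released for 1 h or 1 day of reperfusion. The old sham and young sham groups were sham-operated, and neither the time of their collection nor which lung the RNA came from is stated in the sources used here. Nothing in the labels ties each library to its own animal, and the p-values therefore describe only the scatter among these samples. The tissue is whole lung, in which fewer cells of a type and less RNA per cell cannot be told apart.

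Library totals ran between 27850677 and 44504824 estimated reads. Mitochondrial transcripts took 1.08% to 1.53% of reads in young 1 h lungs and 0.78% to 1.47% in young 1 day lungs, and 2.53% to 4.38% in the other 4 groups. The level of a gene relative to its mean over libraries also followed the GC content of its transcripts in opposite ways. Across 17994 genes, which are not independent replicates, Spearman's rho lay between 0.20 and 0.44 in the young 1 h and young 1 day libraries and was negative in every other library, between -0.35 and -0.27 in old sham, between -0.28 and -0.17 in old 1 h, between -0.19 and -0.02 in old 1 day and between -0.33 and -0.24 in young sham lungs. This trend moves with reperfusion, most in young lungs. Results in young reperfused lungs are therefore given also with the GC trend removed. This was done chiefly where removal ended or made a call or moved a called value by over 1.5 times. Over the 99 member values of all comparisons, removal ended 10 calls and made 4, not all of which are named below. Changes within old lungs are given without that removal. GC content was that of the longest GENCODE transcript of each gene. It was 61.6% for Klf2, above 98.1% of the 17994 genes with such a value. For Klf13, Klf15 and Klf4 it was 55.5%, 54.9% and 54.6%, and Klf6 was the lowest of the 9 at 42.4%. Alveolar type 2 markers, which define lung, summed to at least 7791 CPM (counts scaled to a common library size) in every library, and no marker was at 0 throughout a group.

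RefSeq promoter windows were found for 7 of the 9 genes, all but Klf5 and Klf10. The 5 printed here are those of Klf2, Klf4, Klf6 and Klf7, which were higher at 1 h in old lungs, and of Klf15, which was lower. Each is the 250 bases before 1 annotated start on GRCm38.p6, read 5′ to 3′ on the strand of the gene. For Klf7 and Klf15, with 7 and 9 listed transcripts, other listed starts lie further upstream. Their windows therefore fall inside the span of the listed transcripts, which reaches 64122345 for Klf7 and begins at 90461043 for Klf15. The Klf3 window, counted below but not printed, also runs into the span of its transcripts. Capitals mark matches on either strand to GGGCGG (the GC box, a site for Sp and Kruppel-like factors themselves), CACGTG (an E-box of the kind bound by clock and hypoxia factors), TGACG (a cAMP response element half-site) and, in Klf2, the MEF2 site.
Klf2 chr8:72318812-72319061 (+ strand): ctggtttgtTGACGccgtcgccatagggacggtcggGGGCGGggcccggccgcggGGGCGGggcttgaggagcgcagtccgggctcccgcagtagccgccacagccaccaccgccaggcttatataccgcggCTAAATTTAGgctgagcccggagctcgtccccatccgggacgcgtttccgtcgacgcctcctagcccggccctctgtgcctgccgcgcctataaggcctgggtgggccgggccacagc
Klf4 chr4:55532476-55532725 (- strand): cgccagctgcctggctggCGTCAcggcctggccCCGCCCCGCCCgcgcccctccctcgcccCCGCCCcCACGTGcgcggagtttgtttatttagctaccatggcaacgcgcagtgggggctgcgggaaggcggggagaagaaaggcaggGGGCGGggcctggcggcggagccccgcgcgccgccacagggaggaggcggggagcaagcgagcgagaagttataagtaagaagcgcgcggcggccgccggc
Klf6 chr13:5861239-5861488 (+ strand): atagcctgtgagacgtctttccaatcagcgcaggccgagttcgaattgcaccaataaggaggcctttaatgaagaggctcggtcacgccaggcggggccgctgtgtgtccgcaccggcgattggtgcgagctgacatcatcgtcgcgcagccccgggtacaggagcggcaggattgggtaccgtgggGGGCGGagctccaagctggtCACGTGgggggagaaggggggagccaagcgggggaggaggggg
Klf7 chr1:64121390-64121639 (- strand): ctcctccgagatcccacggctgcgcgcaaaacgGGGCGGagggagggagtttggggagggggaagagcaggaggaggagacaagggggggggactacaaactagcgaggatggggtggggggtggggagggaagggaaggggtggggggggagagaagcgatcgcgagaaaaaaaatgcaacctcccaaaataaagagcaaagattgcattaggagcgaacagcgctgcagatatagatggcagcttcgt
Klf15 chr6:90462326-90462575 (+ strand): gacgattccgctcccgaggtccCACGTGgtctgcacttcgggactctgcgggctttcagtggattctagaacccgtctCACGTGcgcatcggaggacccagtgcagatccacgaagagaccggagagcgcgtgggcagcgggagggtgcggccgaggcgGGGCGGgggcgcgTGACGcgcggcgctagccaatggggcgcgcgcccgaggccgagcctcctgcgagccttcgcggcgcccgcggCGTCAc

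The GC box occurred in all 7 windows, against 32.74% of the 32851 windows of that length in the table. A MEF2 site, the element through which the ERK5 kinase pathway is known to switch on Klf2, occurred in Klf2 alone, at positions -118 to -109 from the start, and in 0.51% of all windows. CACGTG occurred in Klf4, Klf6 and Klf15, in Klf15 at 2 places, and in 6.02% of all windows. TGACG occurred in 4 of the 7 (17.77% of all windows). CACCC occurred in 5 of the 7 (52.01%), Klf4 and Klf6 being without it. The AP-1 site TGANTCA, the SRF CArG box, the full cAMP response element TGACGTCA, GAANNTTC and TATAAA matched in none of the 7 windows, and in 6.75%, 1.47%, 1.55%, 6.69% and 12.37% of all windows. The 7 windows were 59.2% to 78.4% GC, and the windows they are set against were not matched for GC content. These matches describe letters and not bound sites.

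Levels per transcript length, in TPM as the authors deposited them, put Klf2 first in all 6 groups. In sham lungs Klf2 averaged 204 ± 32.1 TPM in old mice and 211 ± 45.9 TPM in young mice (SD, n = 4 each), above the range of every other member. Klf4 and Klf6 came next in both sham groups, with overlapping ranges (134 ± 24.6 and 134 ± 20.9 TPM in old sham lungs). Klf5 was last in sham lungs, at 20.2 ± 1.99 TPM in old and 26.0 ± 4.16 TPM in young mice. At 1 h Klf2, Klf6 and Klf4 stood within each other's range in old lungs (401 ± 78.3, 387 ± 72.3 and 345 ± 76.1 TPM), and Klf15 was last in both ages (20.0 ± 6.31 TPM in old and 37.0 ± 11.1 TPM in young lungs). At 1 day in young lungs Klf6 had dropped behind Klf13 and Klf3, at 60.1 ± 7.79 TPM with ranges that overlapped theirs, and Klf7 was last at 17.8 ± 3.94 TPM.

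**Figure D1:**
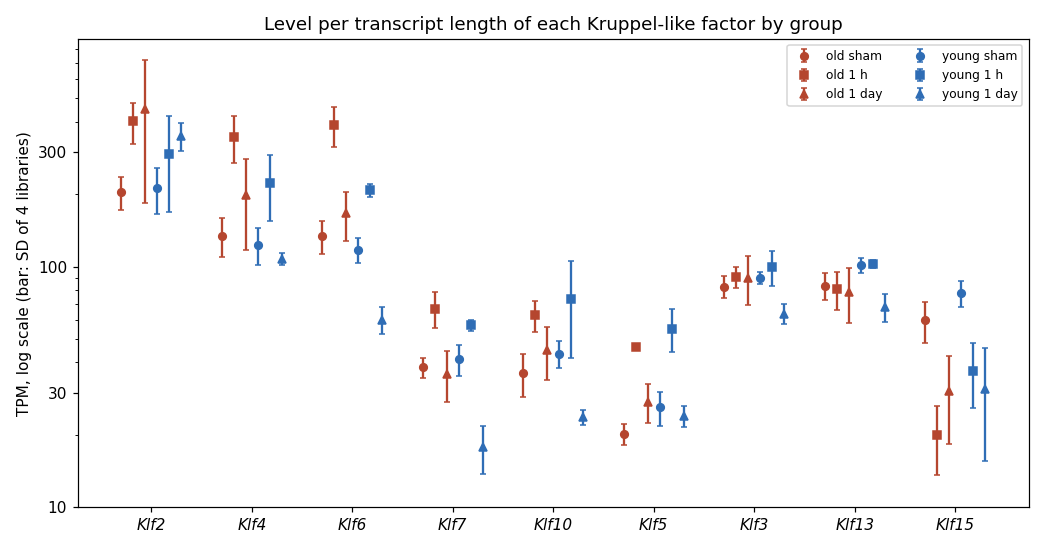
Mean TPM of each Kruppel-like factor on a log scale, with the SD over 4 libraries as bars; old groups are red and young groups blue, with sham as circles, 1 h as squares and 1 day as triangles. Klf2 was the highest in each group, and Klf15 the lowest at 1 h in both ages.

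At 1 h of reperfusion most of the 9 members were higher than in sham lungs, in both ages. This did not hold for the 5 other Kruppel-like factors tested, whose counts are given below. In old lungs 6 of the 9 members rose (Klf2, Klf4, Klf5, Klf6, Klf7 and Klf10) and 1 fell (Klf15). Of all genes tested, 25.2% changed in this comparison, 12.6% rising and 12.6% falling. In young lungs 5 members rose (Klf4, Klf5, Klf6, Klf7 and Klf10) and Klf15 fell, where 41.3% of all genes changed, 21.2% rising and 20.1% falling. The median log2 change over the 9 members was 0.98 in old and 0.75 in young lungs, and over all genes 0.001 and 0.015. Calls are by edgeR's quasi-likelihood test with a Benjamini-Hochberg adjusted p under 0.05 over all genes.

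At 1 day fewer members were above sham. In old lungs 4 members were above sham (Klf2, Klf4, Klf5 and Klf6) and Klf15 was below, where 36.3% of all genes changed, 20.0% rising and 16.3% falling. In young lungs only Klf2 was above sham and 5 members were below (Klf3, Klf6, Klf7, Klf10 and Klf15), where 53.9% of all genes changed, 27.9% rising and 26.0% falling. Once the GC trend was removed, 3 members differed from sham in young 1 day lungs, all below it (Klf7, Klf13 and Klf15): the Klf2, Klf3, Klf6 and Klf10 calls were lost and that of Klf13 was gained. In that fit 8883 of 17994 genes differed from sham, 4139 of them below it. As counted, without that removal, the median change of the 9 was 0.37 in old and -0.52 in young lungs, beside 0.023 and -0.032 over all genes. Both times were set against the same sham libraries of an age.

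**Figure D2:**
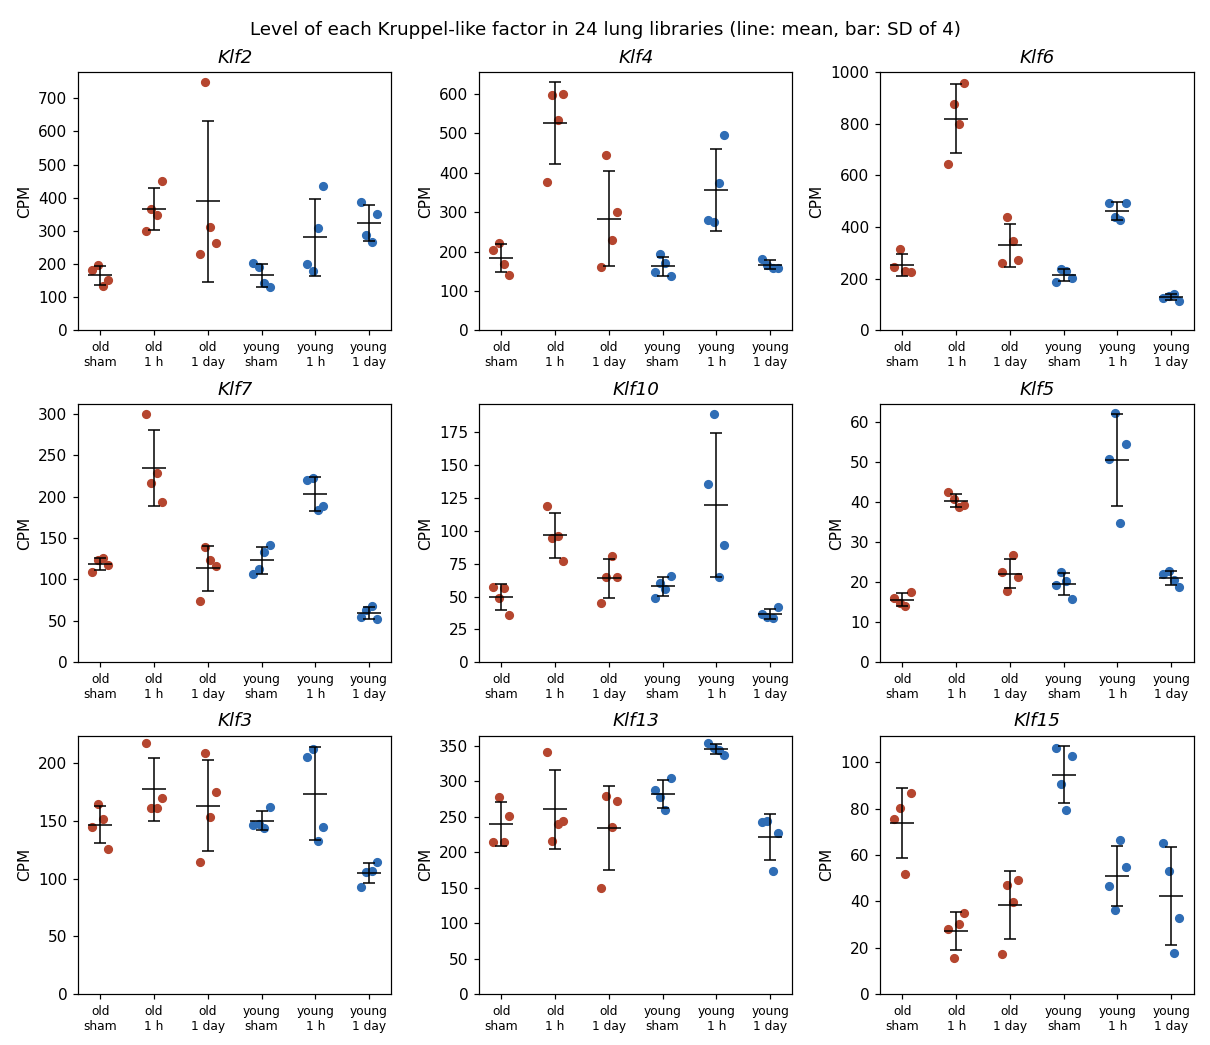
CPM of each member in each of the 24 libraries (points; old red, young blue), with the group mean as a line and the SD of 4 libraries as a bar. Klf4, Klf6, Klf7 and Klf5 stood above their sham range at 1 h in both ages, and Klf15 stood below it.

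**Figure D3:**
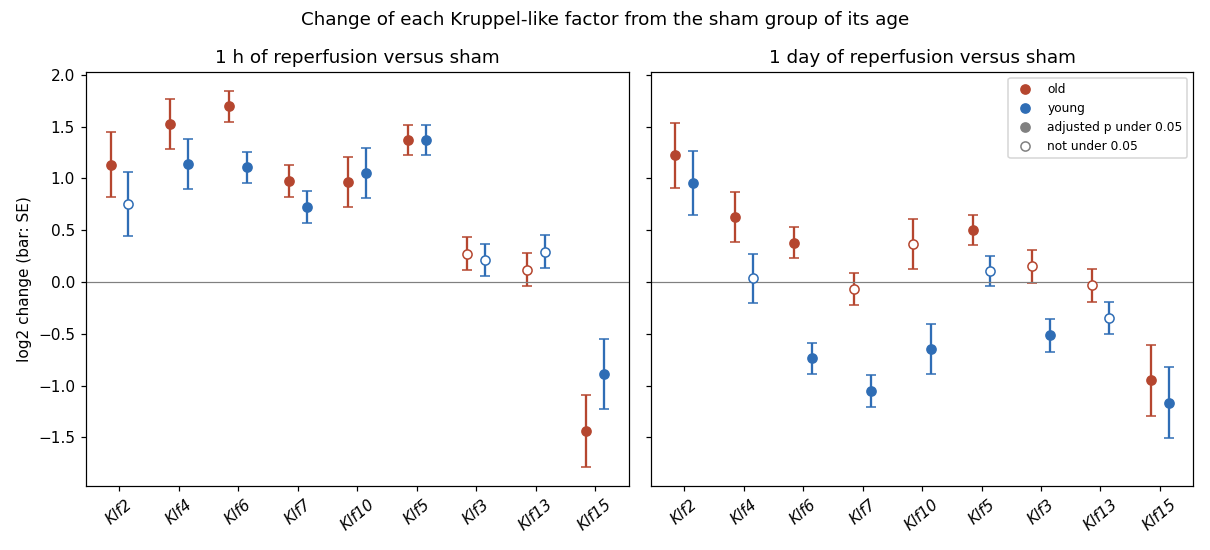
Log2 change of each member from the sham group of its age at 1 h (left) and 1 day (right), with its SE as a bar; old is red, young blue, and filled points have an adjusted p under 0.05. At 1 day Klf6, Klf7 and Klf10 lay at 0.38, -0.07 and 0.37 in old lungs, and at -0.74, -1.05 and -0.65 in young lungs.

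Klf6, a tumour suppressor and injury-response factor that is switched on early after vascular and epithelial damage, showed the largest rise of the 9 in old lungs at 1 h. It had 244, 314, 229 and 226 CPM in old sham lungs, 646, 875, 799.6 and 958 CPM at 1 h, and 261, 439, 345 and 271 CPM at 1 day. In young lungs it had 189, 236, 229 and 203 CPM in sham, 492, 437, 425 and 493 CPM at 1 h, and 127, 132, 142 and 113 CPM at 1 day. Every 1 h library stood above every sham library of its age, every young 1 day library stood below every young sham library, and old 1 day lungs overlapped old sham lungs. The change at 1 h was 3.24-fold in old lungs (log2 1.70 ± 0.15 SE, adjusted p = 1.54e-07) and 2.16-fold in young lungs (log2 1.11 ± 0.15, adjusted p = 4.51e-06). At 1 day it was 1.30-fold in old lungs (log2 0.38 ± 0.15, adjusted p = 0.0496) and 0.600-fold in young lungs (log2 -0.74 ± 0.15, adjusted p = 0.000244). The old 1 day call was lost without old sham replicate 1, 3 or 4 (adjusted p = 0.134, 0.153 and 0.168) or old 1 day replicate 3 (0.134), and without old 1 day replicate 2 the change was 0.19 with an adjusted p of 0.31. With the GC trend removed the young 1 day change was -0.31 with an adjusted p of 0.0687.

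Klf4, a reprogramming and differentiation factor that is anti-inflammatory in endothelium and directs macrophage polarisation, rose at 1 h in both ages. It had 203, 221, 168 and 140.1 CPM in old sham lungs, 377, 596, 535 and 599 CPM at 1 h, and 162, 444, 228 and 299 CPM at 1 day. Young lungs gave 148, 193, 171 and 137 CPM in sham, 281, 275, 374 and 496 CPM at 1 h, and 182, 166, 158 and 159 CPM at 1 day. All 1 h libraries of both ages were above their sham groups, and the 1 day libraries of both ages overlapped sham. The rise at 1 h was 2.88-fold in old lungs (log2 1.53 ± 0.24, adjusted p = 0.000111) and 2.20-fold in young lungs (log2 1.14 ± 0.24, adjusted p = 0.000681). At 1 day the change was 1.55-fold in old lungs (log2 0.63 ± 0.24, adjusted p = 0.0445) and 1.02-fold in young lungs (log2 0.03 ± 0.24, adjusted p = 0.919). Without old 1 day replicate 2 the old 1 day change was 0.31 (adjusted p = 0.297), and the call was also lost without old 1 day replicate 4 (0.0982) or old sham replicate 1, 3 or 4 (0.0698, 0.111 and 0.156).

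Klf2, first described in lung and needed there for late development, rose at both times in old lungs and at 1 day in young lungs. It had 183, 198, 134 and 152 CPM in old sham lungs, 299.8, 365, 347 and 449.5 CPM at 1 h, and 229.5, 748.5, 313 and 264 CPM at 1 day. The young libraries had 202, 190.4, 143 and 132 CPM in sham, 199, 180, 309 and 434 CPM at 1 h, and 388, 289, 267 and 350.2 CPM at 1 day. Old 1 h, old 1 day and young 1 day libraries all lay above their sham groups, whereas 2 of the 4 young 1 h libraries lay inside the young sham range. The rise was 2.19-fold in old 1 h lungs (log2 1.13 ± 0.31, adjusted p = 0.0107) and 2.33-fold in old 1 day lungs (log2 1.22 ± 0.31, adjusted p = 0.00439). In young lungs it was 1.68-fold at 1 h (log2 0.75 ± 0.31, adjusted p = 0.0578) and 1.94-fold at 1 day (log2 0.96 ± 0.31, adjusted p = 0.013). Without old 1 day replicate 2 the old 1 day change was 0.68 with an adjusted p of 0.0405. The young 1 h change passed the threshold without young 1 h replicate 1 (adjusted p = 0.0389) or replicate 2 (0.0293). With the GC trend removed the young changes were 0.39 at 1 h (adjusted p = 0.344) and 0.53 at 1 day (adjusted p = 0.148), so the young 1 day call did not hold.

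Klf7, a factor of neuron and fat cell differentiation, moved in opposite directions at the 2 times in young lungs. It had 109.6, 124, 126 and 118 CPM in old sham lungs, 300, 217, 229 and 194 CPM at 1 h, and 74.1, 139, 124 and 117 CPM at 1 day. Values in young lungs were 107, 112, 133 and 141 CPM in sham, 220.1, 223, 183 and 189 CPM at 1 h, and 54.5, 63.6, 67.9 and 51.9 CPM at 1 day. The 3 young groups did not overlap, and old 1 day lungs spread across the old sham range. The change at 1 h was 1.97-fold in old lungs (log2 0.98 ± 0.16, adjusted p = 9.21e-05) and 1.65-fold in young lungs (log2 0.73 ± 0.15, adjusted p = 0.00066). At 1 day it was 0.951-fold in old lungs (log2 -0.07 ± 0.15, adjusted p = 0.749) and 0.482-fold in young lungs (log2 -1.05 ± 0.16, adjusted p = 7.01e-06). The young 1 day call held with the GC trend removed (log2 -0.82, adjusted p = 0.000161).

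Klf10, also called TGF-beta inducible early gene, had 57.6, 48.7, 56.2 and 35.7 CPM in old sham lungs, 119, 94.7, 96.0 and 77.3 CPM at 1 h, and 44.9, 64.5, 81.1 and 65.2 CPM at 1 day. Young mice had 49.1, 60.1, 55.7 and 65.8 CPM in sham, 136, 189, 64.5 and 89.5 CPM at 1 h, and 36.8, 34.7, 33.7 and 42.0 CPM at 1 day. Young 1 h libraries were the most scattered, with replicate 3 inside the sham range, and all young 1 day libraries lay below sham. The rise at 1 h was 1.95-fold in old lungs (log2 0.97 ± 0.24, adjusted p = 0.0056) and 2.08-fold in young lungs (log2 1.05 ± 0.24, adjusted p = 0.0014). At 1 day it was 1.29-fold in old lungs (log2 0.37 ± 0.24, adjusted p = 0.246) and 0.638-fold in young lungs (log2 -0.65 ± 0.24, adjusted p = 0.0283). The young 1 day call was lost with the GC trend removed (log2 -0.52, adjusted p = 0.0804) and without young sham replicate 2 or 4 (0.0545 and 0.063) or young 1 day replicate 2 or 3 (0.0586 and 0.0587).

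Klf5, a growth-promoting factor of epithelium and of vascular smooth muscle that is needed for alveolar type 2 cell maturation, rose at 1 h in both ages. It had 16.2, 14.8, 14.0 and 17.6 CPM in old sham lungs, 42.4, 40.9, 38.9 and 39.2 CPM at 1 h, and 22.7, 17.9, 26.8 and 21.2 CPM at 1 day. In the young groups there were 19.3, 22.6, 20.2 and 15.9 CPM in sham, 50.9, 62.2, 34.7 and 54.5 CPM at 1 h, and 22.0, 22.8, 20.5 and 18.8 CPM at 1 day. All 1 h libraries stood above sham in both ages, and the old 1 h libraries were tightly grouped. The rise at 1 h was 2.58-fold in old lungs (log2 1.37 ± 0.15, adjusted p = 1.02e-06) and 2.59-fold in young lungs (log2 1.37 ± 0.14, adjusted p = 2.04e-07). At 1 day it was 1.42-fold in old lungs (log2 0.50 ± 0.14, adjusted p = 0.009) and 1.08-fold in young lungs (log2 0.11 ± 0.14, adjusted p = 0.558). The rise at 1 h in old lungs minus that in young lungs was -0.01 ± 0.20 on the log2 scale (adjusted p = 0.992). The old 1 day call was lost without old 1 day replicate 3 (log2 0.37, adjusted p = 0.0555).

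Klf15 was the member that fell at every time and age. It had 75.7, 80.4, 52 and 86.8 CPM in old sham lungs, 28.2, 15.5, 30.1 and 35.1 CPM at 1 h, and 17.1, 46.9, 39.9 and 49.1 CPM at 1 day. Young lungs held 106, 90.6, 79.3 and 103 CPM in sham, 46.5, 36.3, 66.7 and 55.1 CPM at 1 h, and 65.4, 53.1, 17.7 and 32.9 CPM at 1 day. No reperfused library of either age reached its sham range. The change at 1 h was 0.369-fold in old lungs (log2 -1.44 ± 0.35, adjusted p = 0.00445) and 0.540-fold in young lungs (log2 -0.89 ± 0.34, adjusted p = 0.0424). At 1 day it was 0.519-fold in old lungs (log2 -0.95 ± 0.34, adjusted p = 0.0359) and 0.446-fold in young lungs (log2 -1.17 ± 0.34, adjusted p = 0.00702). Leaving out 1 library ended 2 of these calls. The old 1 day call was lost without old sham replicate 1, 2 or 4 (adjusted p = 0.0598, 0.0658 and 0.0793) or old 1 day replicate 1 or 3 (0.0932 and 0.057). The young 1 h call was lost without young sham replicate 1, 2 or 4 (0.0826, 0.0592 and 0.0796) or young 1 h replicate 1, 2 or 4 (0.0903, 0.119 and 0.0688).

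Klf3 and Klf13 moved least. Klf3, the CtBP-recruiting repressor, spanned 126 to 164 CPM in old sham, 161 to 218 CPM in old 1 h and 115 to 209 CPM in old 1 day lungs. It spanned 144 to 162 CPM in young sham, 133 to 212 CPM in young 1 h and 93.1 to 114 CPM in young 1 day lungs. The fall in young 1 day lungs was the only call of the 4 against sham (0.699-fold, log2 -0.52 ± 0.16, adjusted p = 0.00881), and with the GC trend removed it was lost (log2 -0.30, adjusted p = 0.124). Klf13 spanned 214 to 278 CPM in old sham, 215 to 341 CPM in old 1 h and 149.8 to 279 CPM in old 1 day lungs. It spanned 259 to 305 CPM in young sham, 337 to 354 CPM in young 1 h and 173 to 244 CPM in young 1 day lungs. The young 1 h and young 1 day ranges both lay clear of the young sham range, on opposite sides, yet neither change passed the test (log2 0.29 ± 0.16, adjusted p = 0.148, and log2 -0.35 ± 0.16, adjusted p = 0.0696). Removing the GC trend put the Klf13 change in young 1 day lungs at -0.72 with an adjusted p of 0.000511.

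The estimated transcripts of Klf3 also differed. The table lists XM_006503751 (4169 bases), NM_008453 (2314 bases) and XR_001784628 (2323 bases). NM_008453 took 28.4%, 25.0%, 31.8% and 45.6% of the gene's estimated reads in young 1 h lungs and 36.1%, 35.5%, 25.3% and 40.4% in young 1 day lungs. In the other 16 libraries it took 0.32% to 7.62%, and XM_006503751 took at least 86.6%. These shares were looked at after their values were seen, so they are given with no test, and they follow the same groups as the GC trend. For Klf7, whose reads were divided over 7 listed transcripts, XM_006496354 took between 17.5% and 97.7% in the 4 young 1 h libraries, so the sum is used here. The most abundant transcript of Klf7 taken alone gave log2 changes at 1 h of 0.59 in old and 1.59 in young lungs that did not pass the test (adjusted p = 0.852 and 0.385).

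**Figure D4:**
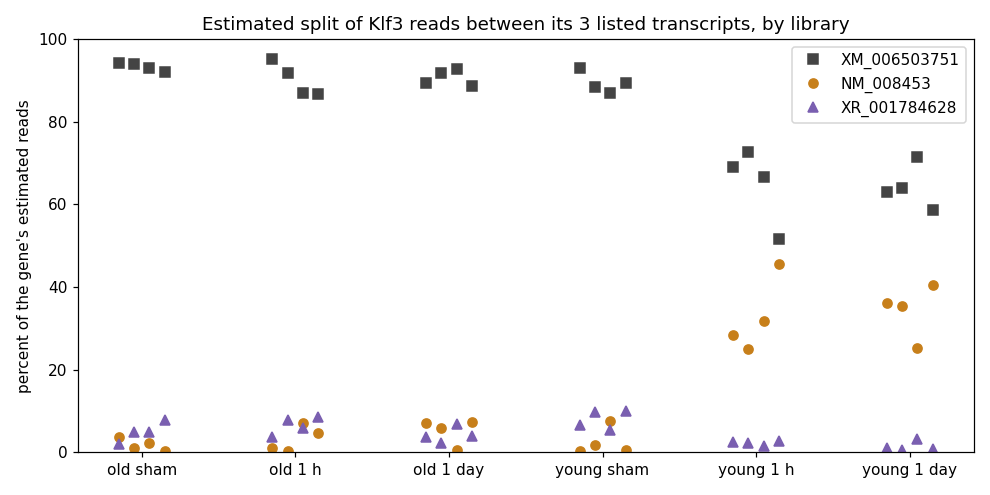
Percent of the estimated Klf3 reads given to each of its 3 listed transcripts in each library, by group. NM_008453 (circles) lay at 25.0% to 45.6% in young 1 h and young 1 day lungs and at most at 7.62% in the other groups.

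The later time was also set against the earlier one. In old lungs 5 of the 9 were lower at 1 day than at 1 h (Klf4, Klf5, Klf6, Klf7 and Klf10), where 45.0% of all genes differed and 20.9% were lower. In young lungs 7 of the 9 were lower (those 5, Klf3 and Klf13), where 46.6% of all genes differed and 22.1% were lower. The largest drop was that of Klf6, to 0.401-fold in old lungs (log2 -1.32 ± 0.15, adjusted p = 8.9e-07) and 0.278-fold in young lungs (log2 -1.85 ± 0.15, adjusted p = 1.82e-08). Klf2 and Klf15 were not among those that fell. Klf2 at 1 day was 1.06-fold its 1 h level in old lungs (log2 0.09 ± 0.31, adjusted p = 0.837) and 1.15-fold in young lungs (log2 0.21 ± 0.31, adjusted p = 0.614). The Klf10 call in old lungs (log2 -0.60 ± 0.24, adjusted p = 0.0481) was lost without old 1 day replicate 1, 2 or 4 (0.138, 0.0761 and 0.0738) or old 1 h replicate 1, 2 or 3 (0.121, 0.0646 and 0.0647).

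In lungs without ischemia the ages were compared first. Between old sham and young sham lungs 0 of the 9 members passed edgeR's test, where 2.31% of all genes did (1.09% higher and 1.22% lower in old), and DESeq2 also called 0. At an unadjusted p under 0.05 there was 1, Klf5 (0.802-fold in old, log2 -0.32 ± 0.14, adjusted p = 0.309).

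Old and young levels were then compared at each time of reperfusion. At 1 h Klf6 was 1.78-fold higher in old than in young lungs (log2 0.83 ± 0.15, adjusted p = 0.000143; log2 0.47, adjusted p = 0.0138, with the GC trend removed), Klf15 was 0.532-fold (log2 -0.91 ± 0.35, adjusted p = 0.0387) and Klf13 was 0.753-fold (log2 -0.41 ± 0.16, adjusted p = 0.0429), so 3 of the 9 differed where 42.0% of all genes did, 20.5% higher and 21.5% lower. The Klf13 call was lost without any one of the 8 libraries but old 1 h replicate 1 (adjusted p 0.0622 to 0.134), and the Klf15 call without any one but old 1 h replicate 4 and young 1 h replicate 2 (0.0516 to 0.125). Klf4 passed without old 1 h replicate 1 (adjusted p = 0.029) or young 1 h replicate 4 (0.0191), and Klf5 without young 1 h replicate 3 (0.00508). The Klf13 and Klf15 calls were also lost with the GC trend removed (log2 -0.12 and -0.64, adjusted p = 0.591 and 0.146). Klf2 (0.80), Klf4 (0.84) and Klf5 (-0.39) passed instead once that trend was removed, at adjusted p of 0.0444, 0.00846 and 0.0337. In that fit 5946 of 17994 genes differed, 2775 higher and 3171 lower in old lungs. At 1 day 5 of the 9 were higher in old lungs (Klf3, Klf4, Klf6, Klf7 and Klf10) and none was lower, where 50.2% of all genes differed and 25.1% were higher. Klf6 was 2.56-fold higher (log2 1.36 ± 0.15, adjusted p = 4.27e-07), Klf7 1.91-fold (log2 0.93 ± 0.16, adjusted p = 4.5e-05), Klf10 1.74-fold (log2 0.80 ± 0.24, adjusted p = 0.00944), Klf4 1.71-fold (log2 0.77 ± 0.24, adjusted p = 0.011) and Klf3 1.55-fold (log2 0.64 ± 0.16, adjusted p = 0.00217). All but Klf4 were higher in each old library than in each young library, and how often genes at large separated in this way was not counted. The Klf4 call was lost without old 1 day replicate 2 (log2 0.45, adjusted p = 0.096). These 1 day values are as counted, with the GC trend left in. That trend differed between the groups compared, with rho of 0.20 to 0.44 in young 1 day and -0.19 to -0.02 in old 1 day libraries. With it removed, 7872 of 17994 genes differed between ages at 1 day, 3894 higher and 3978 lower in old lungs.

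Whether old and young lungs changed by different amounts was tested directly, as an interaction of age and reperfusion. At 1 h 0 of the 9 members passed, where 17.5% of all genes did (8.07% with the higher change in old lungs and 9.46% with the lower). Klf6 came nearest, with a change in old lungs that exceeded that in young lungs by 0.59 ± 0.21 on the log2 scale (adjusted p = 0.0556), and it was also the 1 member with an unadjusted p under 0.05. It was called by DESeq2, by limma on log2(TPM + 1), with a filter of 1 CPM in 4 libraries, with a replicate block and with the compared groups alone (adjusted p = 0.0225, 0.0327, 0.0422, 0.0403 and 0.025), and so too in fits without old sham replicate 2 (adjusted p = 0.0208), old 1 h replicate 1 (0.0226) or young sham replicate 1 (0.0459). That difference was 0.20 with the GC trend removed (adjusted p = 0.634).

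At 1 day 4 of the 9 passed, all with the higher change in old lungs, where 30.3% of all genes passed and 15.2% did so in that direction. These were Klf6 (difference 1.12 ± 0.21, adjusted p = 0.000522), Klf10 (1.02 ± 0.34, adjusted p = 0.0286), Klf7 (0.98 ± 0.22, adjusted p = 0.00198) and Klf3 (0.67 ± 0.22, adjusted p = 0.0279). The difference was positive for all 9 members, with a median of 0.60 beside -0.018 over all genes. Leaving out 1 library could turn its sign for Klf2 (0.265, down to -0.272) and Klf15 (0.219, down to -0.05). With the GC trend removed Klf6 (0.71, adjusted p = 0.0143) and Klf7 (0.79, adjusted p = 0.013) still passed, and Klf10 (0.93, adjusted p = 0.0566) and Klf3 (0.50, adjusted p = 0.117) did not. In that fit 3880 of 17994 genes passed, 1897 of them with the higher change in old lungs. The Klf3 call was lost without old 1 day replicate 2 or 4 (adjusted p = 0.0787 and 0.0525), old sham replicate 4 (0.0642), young sham replicate 4 (0.0529) or young 1 day replicate 1 (0.0649). The Klf10 call was lost without old 1 day replicate 3 (0.0723), old sham replicate 4 (0.0653), young sham replicate 2 or 4 (0.0534 and 0.0554) or young 1 day replicate 1 or 2 (0.0502 and 0.0539).

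**Figure D5:**
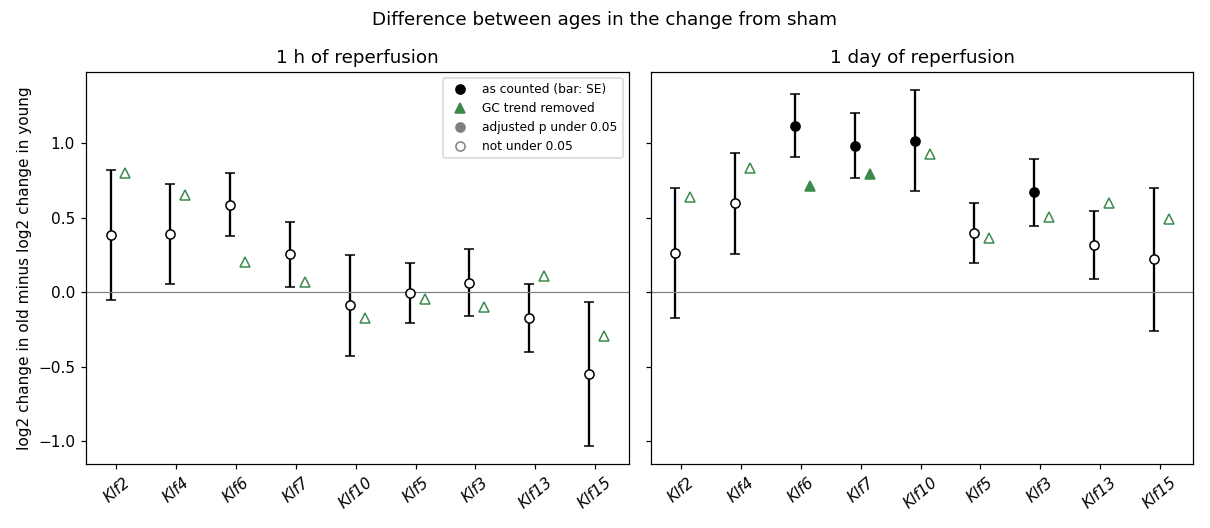
Log2 change from sham in old lungs minus that in young lungs for each member at 1 h (left) and 1 day (right); circles are the values as counted with their SE, triangles those with the GC trend removed, and filled symbols have an adjusted p under 0.05. At 1 day all 9 circles lie above 0, and Klf6 and Klf7 are filled for both.

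Pathway partners of the family were read from lists. For the list counts given with the GC trend removed, the counts over all genes in that fit are these. In young 1 h lungs 6312 of 17994 genes differed from sham, 3254 above and 3058 below it. In young 1 day lungs 8883 differed, 4744 above and 4139 below. Of 8 other Kruppel-like factors, Klf1, Klf14 and Klf17 did not pass the filter on low counts. The 5 tested (Klf8, Klf9, Klf11, Klf12 and Klf16) gave these counts at 1 h: 1 rose and 1 fell in old lungs (median log2 -0.27), and 1 rose and 2 fell in young lungs (median -0.29), or 1 and 0 with the GC trend removed. At 1 day 3 of the 5 fell in old lungs (median -0.43) and 4 of the 5 in young lungs (median -1.05), and none rose. Klf12 fell to 7.03 ± 1.87 CPM in old 1 day lungs, against 23.5 ± 4.20 CPM in old sham lungs (log2 -1.74 ± 0.19, adjusted p = 7.38e-07), and to 13.4 ± 2.45 CPM in young 1 day lungs, against 35.1 ± 1.66 CPM in young sham lungs (log2 -1.39 ± 0.19, adjusted p = 2.09e-06). Klf9, a glucocorticoid- and thyroid hormone-induced factor, fell to 128 ± 34.6 CPM in young 1 day lungs, against 386 ± 31.6 CPM in young sham lungs (log2 -1.60 ± 0.19, adjusted p = 3.31e-07), and its change at 1 day differed between ages by 1.17 ± 0.26 (adjusted p = 0.00198). Of 6 Sp factors tested, 1 rose and 2 fell in old lungs at 1 h (median 0.07) and 1 rose and 3 fell in young lungs at each time (medians -0.33 and -0.28), or 1 and 2 at 1 h and 0 and 4 at 1 day with the GC trend removed, while the median in old lungs at 1 day was -0.08. Sp3 fell in young lungs at 1 h (log2 -0.75 ± 0.09, adjusted p = 1.16e-06) and at 1 day (log2 -0.85 ± 0.09, adjusted p = 8.27e-08), and had log2 changes of 0.00 ± 0.09 and 0.05 ± 0.09 in old lungs. The falls in young lungs were smaller with the GC trend removed, at -0.19 (adjusted p = 0.0162) and -0.26 (adjusted p = 0.000955).

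Upstream of Klf2 and Klf4 lies the ERK5 pathway, in which the kinases Map3k2 and Mapk7 (ERK5 itself) activate MEF2 factors. Of its 7 listed genes, 2 rose in old lungs at 1 h (median log2 0.16), and 2 rose and 3 fell in young lungs at 1 h (median 0.07). At 1 day 1 rose and 1 fell in old lungs (median 0.03), and 1 rose and 3 fell in young lungs (median -0.01). None of the 5 young 1 h calls was left with the GC trend removed, and the young 1 day counts were then 1 and 5. Mapk7 had 40.6 ± 2.35 CPM in old 1 day lungs, against 29.5 ± 1.88 CPM in old sham lungs (log2 0.46 ± 0.10, adjusted p = 0.000654), and 53.4 ± 5.15 CPM in young 1 day lungs, against 29.1 ± 1.74 CPM in young sham lungs (log2 0.88 ± 0.10, adjusted p = 1.14e-07). Mef2c fell in old 1 day lungs to 25.4 ± 5.81 CPM, against 56.3 ± 6.89 CPM in old sham lungs (log2 -1.15 ± 0.15, adjusted p = 4.24e-06). Map3k2 fell in young 1 day lungs to 26.2 ± 1.62 CPM, against 58.8 ± 7.46 CPM in young sham lungs (log2 -1.17 ± 0.11, adjusted p = 1.18e-08). Removing the GC trend put the young 1 day changes at 0.46 for Mapk7 (adjusted p = 0.000329) and -0.51 for Map3k2 (adjusted p = 0.000125). The most abundant transcript alone gave Mapk7 0.88 in old (adjusted p = 0.32) and 1.66 in young 1 day lungs (adjusted p = 0.0286), and Mef2c 0.88 in old 1 day lungs (adjusted p = 0.427).

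Downstream, 7 genes that Klf2 and Klf4 are known to induce in endothelium gave 1 fall in old lungs at 1 h (median log2 0.20), and 3 rises in young lungs at 1 h (median 0.18). At 1 day 2 rose and 4 fell in old lungs (median -0.47), and 1 rose and 3 fell in young lungs (median -0.47). With the GC trend removed, 1 rose in young lungs at 1 h, and 2 fell and 0 rose at 1 day. Nos3, the endothelial nitric oxide synthase, had 91.0, 96.6, 45.3 and 63.1 CPM in young 1 h lungs, against 28.2, 29.7, 26.8 and 27.0 CPM in young sham lungs. All 4 young 1 h libraries were above sham (log2 1.41 ± 0.22, adjusted p = 2.93e-05). Thbd, the anticoagulant receptor thrombomodulin, fell at 1 day to 518 ± 90.3 CPM in old lungs, against 854 ± 72.0 CPM in old sham lungs (log2 -0.72 ± 0.13, adjusted p = 0.00017), and to 566 ± 87.1 CPM in young lungs, against 879 ± 93.7 CPM in young sham lungs (log2 -0.64 ± 0.13, adjusted p = 0.000239).

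Of 6 inflammatory endothelial genes that Klf2 and Klf4 are known to repress, 3 rose at 1 h in each age and none fell, with a median log2 change of 1.16 in old and 0.93 in young lungs. At 1 day 4 rose in old lungs and none fell (median 1.87), and 2 rose and 1 fell in young lungs (median 0.81). Removing the GC trend gave 4 rises in young lungs at 1 h, and 1 rise and 0 falls at 1 day. Sele, the adhesion molecule E-selectin, had 43.3, 51.2, 33.5 and 31.4 CPM in old 1 h lungs, against 0.616, 4.22, 3.42 and 1.20 CPM in old sham lungs (log2 4.08 ± 0.54, adjusted p = 1.72e-05). For the young groups the values were 18.7, 13.2, 11 and 20.4 CPM at 1 h, against 0.656, 1.03, 0.347 and 1.33 CPM in sham (log2 4.23 ± 0.57, adjusted p = 5.88e-06).

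Among 6 early TGF-beta response genes, a class of gene to which Klf10 itself belongs, 2 rose at 1 h in old lungs (median log2 0.09) and 3 in young lungs (median 0.36). At 1 day 2 rose and 1 fell in old lungs (median 0.16), and 2 fell in young lungs (median 0.01), where the counts were 2 up and 1 down once the GC trend was removed. Tgif1, a repressor of SMAD signalling, had 50.3, 62.3, 52.8 and 45.4 CPM in old 1 h lungs, against 16.8, 20.3, 18.3 and 17.6 CPM in old sham lungs (log2 1.53 ± 0.16, adjusted p = 6.46e-07). In young mice Tgif1 stood at 52.3, 47.6, 32.7 and 42.6 CPM at 1 h, against 18.6, 17.9, 19.7 and 16.7 CPM in sham (log2 1.27 ± 0.16, adjusted p = 1.45e-06). Skil, another SMAD repressor, fell at 1 day in young lungs (log2 -0.83 ± 0.15, adjusted p = 8.31e-05), with a difference between ages of 0.97 ± 0.21 (adjusted p = 0.00171). Neither call held with the GC trend removed (log2 -0.30 and 0.48, adjusted p = 0.0897 and 0.0944).

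For Klf15 the related genes are those of glucocorticoid response and amino acid use. Of 5 glucocorticoid-induced genes, 1 rose at 1 h in old lungs (median log2 0.46), and 1 rose and 1 fell in young lungs (median 0.12). At 1 day 2 rose in old lungs (median -0.09), and 3 fell in young lungs (median -0.96), and 3 of the 5 differed between ages at 1 day, all with the higher change in old lungs. Fkbp5, a chaperone of the glucocorticoid receptor, had 69, 282, 307 and 244 CPM in old 1 day lungs, against 39.5, 106, 71.5 and 84.5 CPM in old sham lungs (log2 1.58 ± 0.45, adjusted p = 0.00911), and old 1 day replicate 1 lay within the sham range. Of 6 metabolic targets of Klf15 known from liver and muscle, 1 fell at 1 h in old lungs (median -0.08), and 4 rose and 1 fell in young lungs (median 0.38). At 1 day 1 rose and 3 fell in old lungs (median -0.45), and 3 rose and 2 fell in young lungs (median 0.36). Removing the GC trend left 1 rise and 1 fall in young lungs at 1 h, and 1 rise and 2 falls at 1 day. Bcat2, a branched-chain amino acid transaminase, rose in young 1 day lungs to 56.7 ± 3.19 CPM, against 28.1 ± 3.22 CPM in young sham lungs (log2 1.01 ± 0.09, adjusted p = 5.15e-09). Gpt, alanine transaminase, fell in old 1 day lungs to 11.3 ± 4.07 CPM, against 28.7 ± 2.78 CPM in old sham lungs (log2 -1.34 ± 0.21, adjusted p = 4.52e-05).

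Of 9 cofactors of the family, 2 rose in old lungs at 1 h (median log2 0.11) and 1 at 1 day (median 0.09). In young lungs 5 rose and 2 fell at 1 h (median 0.22), or 3 and 1 with the GC trend removed, and 4 rose and 2 fell at 1 day (median 0.20), or 5 and 2. Of 5 ubiquitin ligase genes of the kind that degrade Klf2 and Klf5, 1 fell in old lungs at 1 h (median -0.03) and 1 rose at 1 day (median -0.16). In young lungs 1 rose and 3 fell at 1 h (median -0.30), or 0 and 1 with the GC trend removed, and 1 rose and 4 fell at 1 day (median -0.52), or 0 and 4. Wwp1 fell in young lungs to 77.1 ± 14.8 CPM at 1 h, against 149 ± 15.1 CPM in young sham lungs (log2 -0.95 ± 0.15, adjusted p = 2.18e-05), and to 76.1 ± 11.2 CPM at 1 day (log2 -0.97 ± 0.15, adjusted p = 9.38e-06). Without the GC trend these were -0.37 (adjusted p = 0.0291) and -0.34 (adjusted p = 0.0323), and the 1 h change of its most abundant transcript alone was -0.59 (adjusted p = 0.134). In old lungs Wwp1 had 99.5 ± 14.2 CPM at 1 h, against 135 ± 10.5 CPM in old sham lungs (log2 -0.44 ± 0.15, adjusted p = 0.0318), a call lost without old sham replicate 1 or 2 (0.0917 and 0.0705) or old 1 h replicate 1, 2 or 3 (0.0683, 0.0839 and 0.0857).

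Markers of the cells that carry these factors moved between groups too. The 8 endothelial markers summed to 3168 to 3450 CPM in old sham, 2600 to 2926 CPM in old 1 h and 2560 to 3311 CPM in old 1 day lungs. In young lungs they summed to 3153 to 4266 CPM in sham, 4318 to 4983 CPM at 1 h and 3115 to 4234 CPM at 1 day. At 1 h 5 of the 8 rose in young lungs, or 2 with the GC trend removed, while 1 fell in old lungs. The 7 T-cell markers summed to 68.3 to 102 CPM in old 1 day lungs, against 111 to 158 CPM in old sham lungs, and to 51.9 to 62.9 CPM in young 1 day lungs, against 141 to 183 CPM in young sham lungs, and all 7 fell at 1 day in both ages, or 5 in young lungs with the GC trend removed. The 6 neutrophil markers summed to 894 to 1196 CPM in old sham, 1744 to 6913 CPM in old 1 h and 637 to 5276 CPM in old 1 day lungs, and to 444 to 816 CPM in young sham, 1018 to 2245 CPM in young 1 h and 433 to 802 CPM in young 1 day lungs.

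The 6 monocyte and macrophage markers summed to 420 to 484 CPM in old sham, 566 to 1116 CPM in old 1 h and 810 to 1292 CPM in old 1 day lungs, and to 351 to 366 CPM in young sham, 558 to 584 CPM in young 1 h and 838 to 1263 CPM in young 1 day lungs. At 1 day 5 of the 6 rose in each age. The 4 smooth muscle markers summed to 363 to 763 CPM in old sham, 778 to 1048 CPM in old 1 h and 191 to 571 CPM in old 1 day lungs, and to 541 to 821 CPM in young sham, 729 to 2387 CPM in young 1 h and 634 to 1091 CPM in young 1 day lungs. At 1 h 1 of the 4 rose in old lungs and 3 in young lungs, or 2 with the GC trend removed, and at 1 day 2 fell in old lungs and 1 rose in young lungs. The 6 alveolar type 1 markers summed to 2768 to 3644 CPM in old sham, 1660 to 2491 CPM in old 1 h and 2186 to 2776 CPM in old 1 day lungs, and to between 3207 and 4196 CPM in every young library. All 6 fell in old lungs at 1 h, and 4 fell and 1 rose there at 1 day, while 1 rose in young lungs at each time. Of the 6 alveolar type 2 markers, 2 fell at 1 h in each age, 1 fell in old 1 day lungs and 2 rose in young 1 day lungs. All 3 club cell markers and 3 of 4 ciliated cell markers fell at 1 day in both ages, all 4 B-cell markers fell in old 1 day lungs, and of 4 mesothelial markers 3 fell in old 1 h, 4 in young 1 h, 1 in old 1 day and 3 in young 1 day lungs. The 4 cardiac muscle markers summed to 379 to 2139 CPM in old sham and 1684 to 3156 CPM in old 1 h lungs. In old 1 day lungs their sum was 36.7 to 316 CPM. Young lungs had 190 to 916 CPM in sham, 609 to 3113 CPM at 1 h and 39.4 to 890 CPM at 1 day. Against sham, 1 of these 4 fell in old 1 day lungs and no other change was called. No marker of these lists was at 0 throughout a group, and the part of cell makeup in the members' values was not tested.

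The old 1 day libraries carried a spread of their own. Replicate 1 was the lowest of the 4 for 8 of the 9 members, all but Klf5, and had a neutrophil marker sum of 637 CPM. Replicate 2 was the highest for 6 of the 9 and had the highest neutrophil sum, 5276 CPM, while replicates 3 and 4 had 2327 and 2122 CPM. In old 1 h lungs the neutrophil sum was highest in replicate 1, at 6913 CPM, the library with the lowest Klf2, Klf4 and Klf6 and the highest Klf3, Klf5, Klf7, Klf10 and Klf13 of its group.

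The genes whose pattern lay nearest to each member were found by the root mean square difference of log2 CPM, each gene centred on its own mean, over the 24 libraries and among 12119 genes with at least 5 CPM on average. The GC trend was left in these values, and its part in the distances was not tested. Klf6 was nearest to Ifrd1 (0.20) and Sat1 (0.26), beside a spread of its own of 0.86. Klf7 was nearest to Arid5b (0.23) and Arl13b (0.23), with a spread of 0.67, and Klf4 to Rabgef1 (0.32) and Midn (0.32), with a spread of 0.69. Klf5 was nearest to Tuft1 (0.22) and Dot1l (0.22), Klf10 to Clic4 (0.28) and Ippk (0.30), and Klf2 to Treml2 (0.33) and Cpne2 (0.34). Klf15 had no close neighbour, the nearest being Col4a4 at 0.49 and Syde2 at 0.49, beside a spread of 0.79. Klf3 (Clip1, 0.14, and Nhsl2, 0.15) and Klf13 (Prkch and Csnk1e, 0.14 each) varied little, with spreads of 0.32 and 0.31.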

How the data were processed

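The authors deposited 1 table of RefSeq transcripts that holds estimated counts, FPKM and TPM per library. Per the submitters' processing notes, HISAT2 and StringTie were used with GRCm38/mm10; versions are not given in the sources used here. Per the labels' protocols, libraries were made with a stranded mRNA kit. The deposited counts are expected counts: 98.3% to 98.9% of values under 50 equalled the deposited FPKM times length, scaled by a factor fitted for each library and rounded up. The deposited TPM gave levels and 1 alternative. Counts were summed by symbol. Library totals (27850677 to 44504824) limit precision little for genes at these levels.

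Genes were filtered with edgeR's filterByExpr (minimum count 10) and scaled by TMM (factors 0.8805 to 1.0917). All 24 libraries entered a quasi-likelihood fit with a mean for each of the 6 groups (edgeR 4.0.16, R 4.3.3). All tests were two-sided, with Benjamini-Hochberg adjustment over all 19690 genes in each of 11 comparisons. CPM is the count scaled to the TMM-adjusted total. SE is the absolute log2 change over the square root of F. The biological coefficient of variation was 23.2%. Alternatives were DESeq2 1.42.0, 2 other filters, a replicate block, removal of a per-library trend with GC content (loess, span 0.3), the most abundant transcript alone, limma 3.58.1 on log2(TPM + 1), the compared groups alone and each library left out.

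The 9 members and all lists were chosen with earlier results of these data known, so lists get counts and medians only. Named list genes are among the 3 of a list with the smallest p in a comparison. Nearest genes skip predicted symbols. Pathway roles are background knowledge. The T-cell homing list is not reported here.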

Additional observations from a re-analysis of the deposited data

Results flagged for a closer look

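Klf2 in old 1 day lungs held a sample far from the others: replicate 2 at 748.5 CPM, against 229.5, 313 and 264 CPM in the other 3. Klf3 in old 1 h lungs held another, replicate 1 at 217.9 CPM, against 161, 161 and 170.1 CPM. The gap test was made in 54 groups of 4 libraries, and chance flags about 1 in 20 groups.

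The change from sham at 1 day differed between ages, by the interaction test, for 4 members. The change in old lungs minus that in young lungs was 1.116 for Klf6, 1.016 for Klf10, 0.98 for Klf7 and 0.668 for Klf3 on the log2 scale. With the GC trend removed Klf10 and Klf3 did not pass that test (adjusted p = 0.0566 and 0.117), and both calls were also lost without certain single libraries.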

How the results depend on the processing

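The count of changed members in old 1 day lungs against old sham, 5 as reported, was the least stable: 2 with no low-count filter, 2 with the most abundant transcript alone, and 3 with limma on log2(TPM + 1), with the compared groups alone or with a replicate block. Old 1 day against old 1 h (5) gave 3 with the most abundant transcript alone. Old against young at 1 h (3) gave 1 with no filter and 1 with the most abundant transcript alone. With the GC trend removed, with or without a replicate block, young 1 day against young sham (6) gave 3 and the age difference in the 1 day change (4) gave 2. That at 1 h (0) gave 1, Klf6, with DESeq2, a filter of 1 CPM in 4 libraries, a replicate block, limma or the compared groups alone. With 1 library left out, the counts ran 2 to 4 for old 1 day against old sham, 1 to 3 for old against young at 1 h, 0 to 1 for the age difference at 1 h and 2 to 4 at 1 day. The other counts stayed within 1.5 times in the alternatives run. The cause of these shifts was not tested.

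Replicate numbers did not pair the libraries: same-numbered libraries of different groups correlated at -0.334 to 0.304 (60 pairs) in their deviations, and others at -0.407 to 0.358. The replicate block kept 93 of 99 single values on their side of the threshold. The median of all genes by limma on log2(TPM + 1) was -0.12 in old 1 h, -0.17 in young 1 h and -0.15 in young 1 day lungs, beside 0.001, 0.015 and -0.032 by edgeR. There 25.5%, 22.9% and 34.9% of called genes were higher, against 49.9%, 51.4% and 51.8% by edgeR, and in old 1 day lungs 44.7% against 55.1%.

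Single changes that turned sign were mostly near 0. Klf13 at 1 h in old lungs was -0.06 with limma and -0.043 to 0.196 with 1 library left out. In young lungs at 1 h it was -0.022, and -0.018 with a replicate block, once the GC trend was removed, and the age difference 0.106 and 0.11. Removing the GC trend gave Klf4 -0.28 and, with the block, -0.26 in young 1 day lungs, and Klf3 -0.135 between old and young at 1 h, where limma gave -0.129. Limma gave Klf5 -0.108 in young 1 day lungs. The most abundant transcript gave Klf3 -0.237 in young 1 h lungs, and Klf7 0.119 in old 1 day lungs, 0.221 and -0.786 between ages in sham and 1 h lungs, and -1.007 for the age difference at 1 h. Leaving out 1 library gave Klf2 -0.452 to 0.25 for old 1 day against 1 h, -0.284 to 0.418 for old against young at 1 day and -0.272 to 0.43 for the age difference at 1 day, each lowest without old 1 day replicate 2. It gave Klf10 -0.513 to 0.002 between ages at 1 h. Of the named pathway genes, Sp3 was -0.158 at 1 h in old lungs with limma, and the most abundant transcript gave Sp3 -0.044 and Mef2c 0.878 in old 1 day lungs.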
